A study of Mus musculus with 6 samples.

Results

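The genes described here are 10 oxidative stress and metallothionein genes, picked by symbol from the table of gene counts of sorted mouse kidney endothelial cells: Mt1, Mt2, Hmox1, Nqo1, Txnrd1, Gclc, Gclm, Srxn1, Nfe2l2 and Sod3. All 10 were found among the 55401 genes listed, and all 10 had enough reads to be tested among 18438 genes. The study removed Rbpj, the DNA-binding effector of Notch receptors, from the endothelium of adult male mice and compared them with Cre-negative littermates. All 6 mice carried 2 floxed Rbpj alleles (Rbpjf/f) and all 6 received 5 intraperitoneal doses of 1.5 mg tamoxifen at 8 weeks of age. The 3 CTRL mice had no Cre (Cre -/-). The 3 RbpjΔEC mice, written RbpjDEC in the labels, had 1 copy of Cdh5CreERT2 (Cre +/-), a tamoxifen-dependent recombinase driven by the endothelial Cdh5 promoter. Kidneys were taken 12 weeks after induction, at a labelled age of 21 weeks, CD31+ CD45- cells were sorted, and their total RNA was sequenced, with 1 library per mouse. The controls lacked Cre altogether, so activated Cre and loss of Rbpj cannot be told apart in these groups.

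NRF2, the transcription factor encoded by Nfe2l2, is held by KEAP1 and degraded in unstressed cells. Electrophiles and oxidants release it, and with small MAF proteins it binds antioxidant response elements in front of genes for glutathione synthesis, thioredoxin reduction, quinone reduction and heme breakdown. Metallothioneins are small cysteine-rich proteins that bind zinc, copper and cadmium and scavenge oxidants, and their genes are switched on through the zinc sensor MTF1 at metal response elements and also by glucocorticoids. In the vessel wall these systems buffer hydrogen peroxide and superoxide, the latter outside the cell through extracellular superoxide dismutase, the product of Sod3.

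The promoters of Mt1, Mt2 and Srxn1 are shown, the metallothionein genes because the results turn on them, and Srxn1 as the NRF2 target with the most antioxidant response element cores among the windows at hand. RefSeq windows on GRCm38.p6, from 250 bases before to 50 after each start site, were at hand for 7 of the 10 genes, all except Hmox1, Gclc and Sod3. In the Mt1 window (chr8:94178839-94179138, plus strand) and the Mt2 window (chr8:94172368-94172667, plus strand), capitals mark the metal response element core, TGCGCNC or TGCACNC on either strand.
Mt1: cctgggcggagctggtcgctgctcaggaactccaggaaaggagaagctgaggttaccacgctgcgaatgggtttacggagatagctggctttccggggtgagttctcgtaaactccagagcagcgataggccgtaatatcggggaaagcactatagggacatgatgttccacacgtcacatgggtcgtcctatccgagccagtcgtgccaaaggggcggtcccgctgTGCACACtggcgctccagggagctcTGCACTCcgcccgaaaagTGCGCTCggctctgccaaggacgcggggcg
Mt2: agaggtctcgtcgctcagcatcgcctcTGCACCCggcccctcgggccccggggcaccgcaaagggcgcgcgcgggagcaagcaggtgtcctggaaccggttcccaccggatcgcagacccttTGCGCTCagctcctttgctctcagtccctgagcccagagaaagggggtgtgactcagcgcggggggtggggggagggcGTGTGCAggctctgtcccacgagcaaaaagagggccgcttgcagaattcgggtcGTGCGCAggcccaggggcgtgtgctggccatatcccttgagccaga
The Mt1 window held 3 matches and the Mt2 window 4, of which 2 in Mt2 lie on the minus strand. Of all 32851 promoter windows of this length, 25.7% held at least 1 match, 1.97% at least 3 and 0.517% at least 4. The annotation also gives Mt1 transcripts that start 122 and 152 bases downstream of the RefSeq start, and the window does not reach the sequence directly before these. Mt2 transcripts of the annotation start 46 and 242 bases downstream of the RefSeq start of Mt2, so that its window ends close to the start of the longer transcript and does not reach the other. In the Srxn1 window (chr2:152105274-152105573, plus strand), capitals mark the antioxidant response element core, TGACNNNGC or TGAGNNNGC on either strand.
Srxn1: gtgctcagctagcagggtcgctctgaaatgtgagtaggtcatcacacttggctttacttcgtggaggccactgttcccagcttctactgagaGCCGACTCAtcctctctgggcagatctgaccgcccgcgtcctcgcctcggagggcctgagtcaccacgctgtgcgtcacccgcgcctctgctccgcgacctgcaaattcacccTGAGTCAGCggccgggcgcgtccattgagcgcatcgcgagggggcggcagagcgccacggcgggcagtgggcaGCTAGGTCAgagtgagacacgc
Srxn1 held 3 matches, while 27.8% of all windows held at least 1 and 0.63% at least 3. The windows of Mt2, Gclm and Nfe2l2 each held 1 antioxidant response element core, that of Nqo1 held none, and of the 3 windows of Txnrd1, 1 held a single core and 2 held none. Metal response element cores were also present in the windows of Gclm, with 3, and Srxn1, with 1. A match of letters is a description of the sequence and not a bound site.

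The libraries held between 39649171 and 47726850 counts, so that the floor of 3 counts lay between 0.0629 and 0.0757 CPM before TMM scaling. Levels are otherwise given as CPM, the count relative to the TMM-scaled library total. The library of CTRL 1 had counts on 33764 genes against 25629 to 26785 in the others. Rbpj, the targeted gene, had 28.1, 29.7 and 29.8 CPM in CTRL and 28.9, 26.1 and 29.6 CPM in RbpjΔEC (log2 fold change -0.05, edgeR adjusted p = 0.793, where edgeR adjusted p stands throughout for the quasi-likelihood test with the adjustment of Benjamini and Hochberg over all tested genes), and since reads were counted over the whole gene this does not check the loss of the floxed part. Pecam1, the gene of CD31, was at 1889 to 2324 CPM in all 6 libraries. Across all genes 209 passed an adjusted p of 0.05, 106 higher and 103 lower in RbpjΔEC.

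None of the 10 genes passed the adjusted p of 0.05 in edgeR's quasi-likelihood test, against 1.13% of all tested genes, 0.575% being higher and 0.559% lower. An unadjusted p under 0.05 was reached by 4 genes, all lower in RbpjΔEC (Mt1, Mt2, Nqo1 and Nfe2l2), where 8.62% of all tested genes were lower and 8.88% higher. In 2 of the 10, Nqo1 and Nfe2l2, every RbpjΔEC library lay below every CTRL library, as in 11.6% of all tested genes. The median log2 fold change of the 10 genes was -0.12, with 8 below 0 and 2 above, beside 0.01 over all tested genes. DESeq2's Wald test, run on the 18438 genes kept by the low-count filter, put Mt1 and Nfe2l2 past the threshold, with 5.12% of all tested genes, 2.35% being higher and 2.77% lower. Run on all 38324 genes with a count, an alternative chosen after seeing the data, it put Mt1 past the threshold (DESeq2 adjusted p = 0.0332) and not Nfe2l2 (DESeq2 adjusted p = 0.0849). The 10 genes differed in the size of the difference. The metallothioneins had mean levels of 47.2% and 42.8% of CTRL with a wide spread, 5 of 6 NRF2 targets had means between 90.3% and 103% of CTRL, Nfe2l2 and the remaining target Nqo1 stood at 84.2% and 72.7%, and Sod3 was higher in a single RbpjΔEC library.

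**Figure D1:**
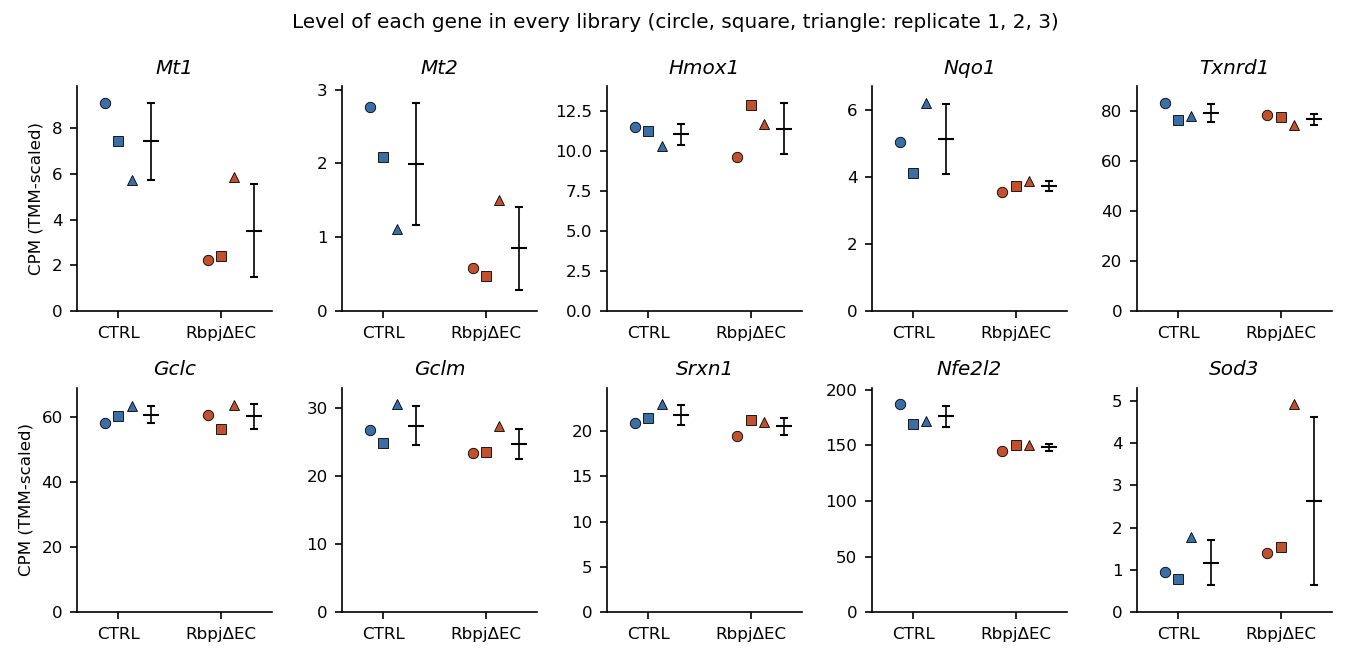
Level of the 10 genes in CPM (y axis, from 0) in each of the 3 CTRL and 3 RbpjΔEC libraries; bars give the mean and SD of each group. Nqo1 and Nfe2l2 do not overlap between the groups, and RbpjΔEC 3 lies with CTRL in Mt1 and stands above all others in Sod3.

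Between genes, levels were compared per kb of exon (CPM per kb, mean ± SD, n = 3). In CTRL, Nfe2l2 was highest at 46.4 ± 2.47, followed by Gclc at 16.1 ± 0.688, Txnrd1 at 11.2 ± 0.519 and Srxn1 at 7.72 ± 0.379. Below these stood Hmox1 at 6.29 ± 0.360, Mt1 at 5.97 ± 1.35, Gclm at 4.35 ± 0.457, Mt2 at 3.39 ± 1.42 and Nqo1 at 3.31 ± 0.680. Sod3 was lowest at 0.313 ± 0.142. Each of the 4 highest genes was separated from its neighbours by more than the range of its libraries, whereas the ranges of neighbours from Hmox1 down to Nqo1 overlapped. In RbpjΔEC the leading 4 kept their order, with Nfe2l2 at 39.1 ± 0.818 and Srxn1 at 7.28 ± 0.335, and the ranges of Srxn1 and Hmox1 overlapped. Mt1 stood at 2.82 ± 1.64 and below Gclm at 3.93 ± 0.351, and Mt2 at 1.45 ± 0.955 below Nqo1 at 2.40 ± 0.104, in both cases with overlapping ranges. Exon length was the union over all annotated transcripts, which for Mt1 takes in its introns and understates its level per kb.

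The metallothionein genes lie next to each other on chromosome 8, Mt2 at chr8:94172664-94173568 and Mt1 at chr8:94179082-94180327, both on the plus strand of GRCm38 with 5513 bases between them. Mt1 had 9.13, 7.44 and 5.75 CPM in CTRL and 2.25, 2.41 and 5.86 CPM in RbpjΔEC. Its raw counts were 366, 352 and 243 in CTRL and 101, 101 and 235 in RbpjΔEC. RbpjΔEC 1 and 2 were low, while RbpjΔEC 3 lay at the level of the lowest CTRL library, so the groups overlapped. The mean was 7.44 ± 1.69 CPM in CTRL and 3.51 ± 2.04 CPM in RbpjΔEC (SD, n = 3 each), which is 47.2% of CTRL. The log2 fold change was -1.09 (standard error 0.377, 95% interval -1.96 to -0.22, edgeR adjusted p = 0.193).

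Mt2 followed the same order of libraries within RbpjΔEC and CTRL except between RbpjΔEC 1 and 2. It had 2.77, 2.09 and 1.11 CPM in CTRL and 0.580, 0.477 and 1.50 CPM in RbpjΔEC, from raw counts of 111, 99 and 47 and of 26, 20 and 60. Again RbpjΔEC 3 was the highest of its group, above CTRL 3. The log2 fold change of Mt2 was -1.23 (standard error 0.476, 95% interval -2.28 to -0.18, edgeR adjusted p = 0.216). Without RbpjΔEC 3, both genes passed the same test, Mt1 at -1.67 (edgeR adjusted p = 0.00445) and Mt2 at -1.90 (edgeR adjusted p = 0.0436). Without any other single library they did not pass, with log2 fold changes reaching -0.85 for Mt1 and -0.92 for Mt2.

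Since the 2 genes are close paralogs, reads shared by both could be split or lost in counting, and Mt2 overlaps Gm45774, a gene on the opposite strand with 1 to 19 counts per library and 432 shared exonic bases. Whether strand was used in counting is not given in the sources used here. The ratio of Mt1 to Mt2 counts within a library does not depend on scaling. It was 3.30, 3.56 and 5.17 in CTRL and 3.88, 5.05 and 3.92 in RbpjΔEC, with a full overlap of the groups. The mean log2 ratio differed by 0.11 (two-sided exact permutation test, p = 0.6, with 0.1 the smallest p that 3 against 3 allows). That difference ran from -0.0123 without CTRL 1 to 0.31 without CTRL 3, and was also below 0 without RbpjΔEC 2. The 2 other metallothionein genes of this cluster, Mt3 and Mt4, had 1 count and 0 counts in all 6 libraries together.

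The gene whose log2 CPM over the 6 libraries was most like that of Mt1, among 10441 genes with a mean of at least 5 CPM, was Slc12a3, the thiazide-sensitive sodium chloride cotransporter of the distal convoluted tubule (r = 0.995). Slc12a3 had 139.9, 108.2 and 62.5 CPM in CTRL and 13.9, 11.5 and 64.4 CPM in RbpjΔEC. It was thus high in CTRL 1, low in RbpjΔEC 1 and 2 and intermediate in CTRL 3 and RbpjΔEC 3, the order seen for Mt1 except between RbpjΔEC 1 and 2. Slc12a3 lies 148873 bases downstream of Mt1 on the same chromosome. Next came Pcyt1a, an enzyme of phosphatidylcholine synthesis, and Daglb, a diacylglycerol lipase (both r = 0.992), at 88.9 to 93.8 CPM and 13.5 to 14.5 CPM in CTRL and 78.0 to 89.6 CPM and 12.1 to 13.5 CPM in RbpjΔEC. In all, 56 genes reached r = 0.95 with Mt1. These values are descriptive, since the points are the same 6 libraries and were searched over all genes.

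Kidney tubule cells also express metallothioneins, and tubule markers were present in these sorted libraries. Proximal and distal markers went in opposite directions. The 10 proximal tubule markers summed to 53.3 to 164 CPM in CTRL and 108 to 460 CPM in RbpjΔEC, all with a log2 fold change above 0 (median 1.16). The 8 markers of the thick ascending limb, distal tubule and collecting duct summed to 216 to 402 CPM in CTRL and 48.6 to 164 CPM in RbpjΔEC. This sum includes Slc12a3, picked above for its likeness to Mt1, so the sum is not separate from that choice. None of the 8 was at 0 in any library, but 2 reached the floor of 3 counts, Atp6v1g3 in RbpjΔEC 2 and Fxyd4 in RbpjΔEC 1. All 8 had a log2 fold change below 0 (median -1.57), 5 of them at an unadjusted p under 0.05, where 8.62% of all tested genes were lower, and 0 at an adjusted p of 0.05 in edgeR's quasi-likelihood test. Calb1, a calcium-binding protein of the distal tubule, had 8.90, 9.59 and 8.15 CPM in CTRL and 2.86, 0.858 and 4.99 CPM in RbpjΔEC. Umod, the uromodulin gene of the thick ascending limb, had 106, 56.0 and 68.4 CPM in CTRL and 42.6, 18.3 and 39.9 CPM in RbpjΔEC. In Calb1 and Umod, unlike in Slc12a3 and Mt1, RbpjΔEC 3 lay below every CTRL library. Summed markers of some other cell types were also at lower levels, with RbpjΔEC 1 and 2 lowest. Mural markers summed to 91.6 to 119 CPM in CTRL and 37.1 to 61.4 CPM in RbpjΔEC (10 of 10 tested below 0, median -1.16). Of these, 3 were past the adjusted p of 0.05 in edgeR's quasi-likelihood test, where 0.559% of all tested genes were lower. Of 9 fibroblast markers 4 were tested, all below 0, and 2 of them, Pi16 and Pdgfra, were past it. The sum of the 4 was mostly Pi16, which is also listed as a glomerular endothelial marker (131 to 163 CPM in CTRL and 68.3 to 93.2 CPM in RbpjΔEC). Red blood cell markers summed to 9.72 to 11.7 CPM in CTRL and 1.24 to 7.19 CPM in RbpjΔEC (6 of 6 below 0, 0 past it). The part of these cells in the metallothionein values was not tested. In bulk RNA, fewer cells of a type and less RNA per cell cannot be told apart.

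**Figure D2:**
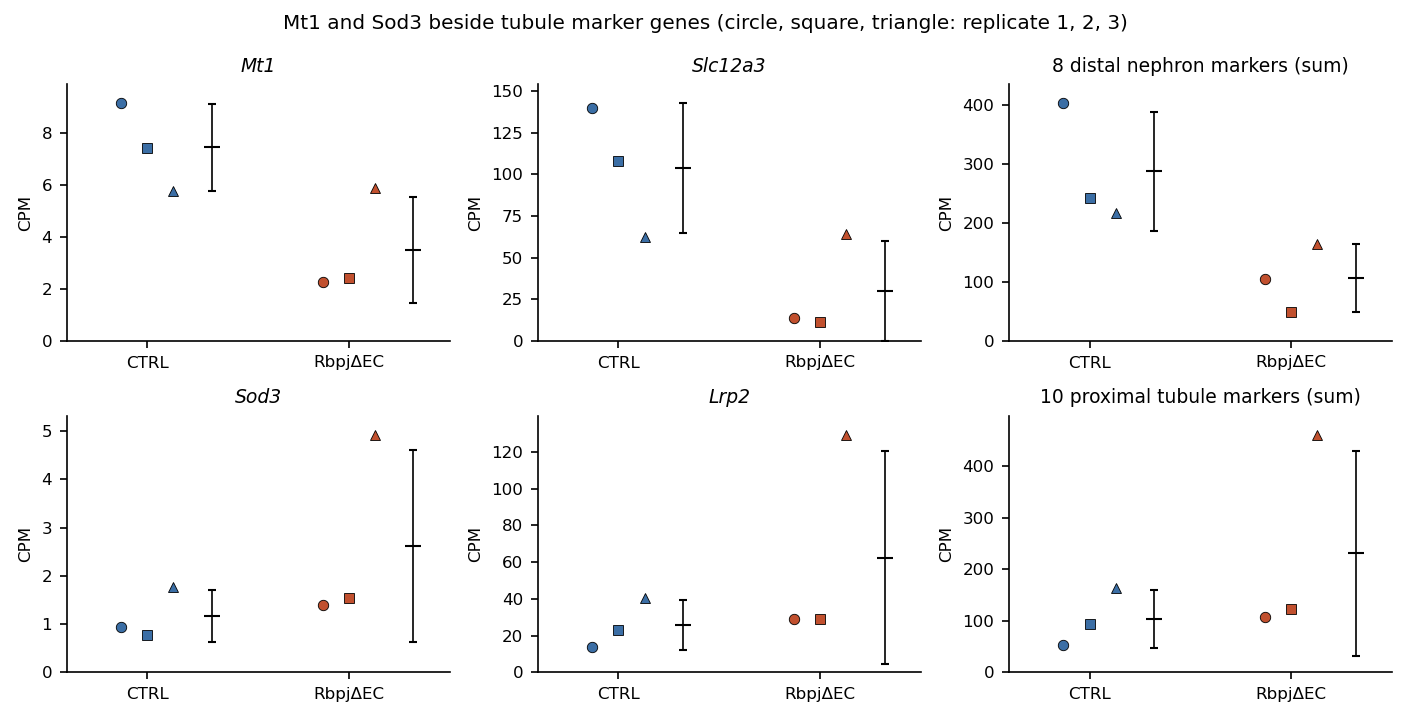
CPM (y axis, from 0) of Mt1, Slc12a3 and the sum of 8 distal nephron markers in the upper row, and of Sod3, Lrp2 and the sum of 10 proximal tubule markers in the lower row, per library with the mean and SD of each group. The sums include Slc12a3 and Lrp2. RbpjΔEC 1 and 2 are lowest in all panels of the upper row, and RbpjΔEC 3 is highest in all panels of the lower row.

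Of the other metal handling genes, 8 of 11 were tested and 0 passed the adjusted p of 0.05 in either direction, 2 being lower at an unadjusted p under 0.05, where 8.62% of all tested genes were lower. Their median of -0.09 became -0.03 without RbpjΔEC 1, -0.05 without RbpjΔEC 2 and -0.02 with only genes of at least 1 CPM in 3 libraries. Mtf1, the zinc-sensing factor itself, had 39.5 ± 3.40 CPM in CTRL and 40.1 ± 3.64 CPM in RbpjΔEC (log2 fold change 0.02, standard error 0.0947). Slc40a1, the iron exporter ferroportin, was at 2.07, 0.634 and 1.23 CPM in CTRL and 0.736, 0.381 and 0.549 CPM in RbpjΔEC (log2 fold change -1.23, edgeR adjusted p = 0.197). Slc39a10 and Slc39a8, zinc importers, had log2 fold changes of -0.20 each. Among 12 glucocorticoid response genes, 0 passed and the median was -0.03. That median had no stable direction, at -0.23 without RbpjΔEC 3, at 0.11 without CTRL 2 and at 0.13 without RbpjΔEC 1. Dusp1, a phosphatase of MAP kinases, had a log2 fold change of 0.27, with all RbpjΔEC libraries above CTRL (738 to 798 against 582 to 721 CPM), while Errfi1, an inhibitor of EGF receptor signaling, was at 0.31 and Klf9, a Krüppel-like factor, at -0.34, each with overlapping groups.

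Nfe2l2 (chr2:75675513-75704641, minus strand), the gene of NRF2, was the most abundant of the 10 and had the smallest unadjusted p of them, at rank 612 among all tested genes. It had 186.9, 169.6 and 172.1 CPM in CTRL and 144.8, 149.99 and 150.4 CPM in RbpjΔEC. Every RbpjΔEC library lay below every CTRL library, and the spread within RbpjΔEC was small. The means were 176 ± 9.39 and 148 ± 3.10 CPM (SD, n = 3 each), so RbpjΔEC stood at 84.2% of CTRL. The log2 fold change was -0.25 (standard error 0.0670, 95% interval -0.39 to -0.10, edgeR adjusted p = 0.0940). DESeq2's Wald test on the filtered genes put it past the threshold at -0.25 (DESeq2 adjusted p = 0.0338), and on all genes with a count it did not (DESeq2 adjusted p = 0.0849). In the main test, with any 1 library left out the edgeR adjusted p ran from 0.0537 to 0.323.

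Beside Nfe2l2, the summed level of 13 pan-endothelial markers was also lower in RbpjΔEC, at 24287 to 24562 CPM against 26754 to 29547 CPM in CTRL. Their median log2 fold change was -0.19, 10 of 13 lay below 0, and 0 of 13 passed the adjusted p of 0.05 in edgeR's quasi-likelihood test. An unadjusted p under 0.05 was reached by 5 lower and 1 higher marker, where 8.62% of all tested genes were lower and 8.88% higher. Kdr, the VEGF receptor 2 gene, had 5658 to 6261 CPM in CTRL and 4924 to 5009 CPM in RbpjΔEC. The part of these differences in the value of Nfe2l2 was not tested.

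The regulators and partners of NRF2 were all 13 tested, and 0 passed the adjusted p of 0.05 (median 0.08). At an unadjusted p under 0.05, 3 were higher, where 8.88% of all tested genes were higher, and these 3 were the small MAF genes. Mafk had 49.6, 57.0 and 52.3 CPM in CTRL and 62.8, 57.9 and 65.9 CPM in RbpjΔEC, with no overlap (log2 fold change 0.23, standard error 0.0815, edgeR adjusted p = 0.174). Mafg was at 0.29 and Maff at 0.35 on the log2 scale, with 1 CTRL library inside the RbpjΔEC range in each. Keap1, the NRF2 inhibitor, had 64.1 ± 4.66 CPM in CTRL and 67.5 ± 1.25 CPM in RbpjΔEC (log2 fold change 0.08, standard error 0.0749).

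Nqo1 (chr8:107388225-107403206, minus strand), an NAD(P)H-dependent quinone reductase and a standard readout of NRF2, had 5.06, 4.12 and 6.23 CPM in CTRL and 3.57, 3.74 and 3.89 CPM in RbpjΔEC. The groups did not overlap, although CTRL 2 and RbpjΔEC 3 lay close together. Its log2 fold change was -0.46 (standard error 0.202, 95% interval -0.90 to -0.02, edgeR adjusted p = 0.264). It ran from -0.60 without CTRL 2 to -0.30 without CTRL 3.

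The 2 subunits of glutamate cysteine ligase, the enzyme that sets the rate of glutathione synthesis, showed no difference past the test. Gclc (chr9:77754535-77794485, plus strand), the catalytic subunit, had 58.3, 60.5 and 63.5 CPM in CTRL and 60.6, 56.4 and 63.9 CPM in RbpjΔEC, with the groups interleaved. Its log2 fold change was -0.01 (standard error 0.0759), and the 95% interval from -0.18 to 0.15 bounds the difference. Gclm (chr3:122245557-122270732, plus strand), the modifier subunit, had 26.7, 24.9 and 30.5 CPM in CTRL and 23.4, 23.6 and 27.3 CPM in RbpjΔEC, with -0.15 as log2 fold change (standard error 0.104, 95% interval -0.37 to 0.08). That of Gclm ran from -0.06 without CTRL 3 to -0.22 without RbpjΔEC 3. It shares exonic bases with Gm6061 on the same strand and Gm17494 on the other, which had 4 to 23 and 21 to 41 counts per library. The ratio of Gclc to Gclm counts was 2.18, 2.43 and 2.08 in CTRL and 2.59, 2.39 and 2.34 in RbpjΔEC. The groups overlapped, and the mean log2 ratio differed by 0.13 (two-sided exact permutation test, p = 0.3). It ran from 0.08 without CTRL 3 to 0.20 without CTRL 2.

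The genes that recycle thioredoxin and peroxiredoxin had small differences with narrow intervals. Txnrd1 (chr10:82833951-82897712, plus strand), cytosolic thioredoxin reductase, had 83.3, 76.2 and 78.2 CPM in CTRL and 78.3, 77.7 and 74.2 CPM in RbpjΔEC (log2 fold change -0.05, standard error 0.0691, 95% interval -0.20 to 0.11). Srxn1 (chr2:152105516-152111376, plus strand), the sulfiredoxin that restores overoxidized peroxiredoxins and whose promoter held the most antioxidant response element cores, had 20.9, 21.4 and 23.0 CPM in CTRL and 19.5, 21.2 and 21.0 CPM in RbpjΔEC (log2 fold change -0.08, standard error 0.0917, 95% interval -0.28 to 0.12). Without 1 library in turn they ran from -0.08 to -0.01 for Txnrd1 and from -0.12 to -0.05 for Srxn1. For both genes the groups overlapped, and RbpjΔEC stood at 96.9% and 94.4% of the CTRL mean.

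Hmox1 (chr8:75093621-75100589, plus strand), the inducible heme oxygenase, had 11.5, 11.2 and 10.3 CPM in CTRL and 9.64, 12.8 and 11.7 CPM in RbpjΔEC. The RbpjΔEC libraries lay on both sides of CTRL, and the log2 fold change was 0.05 (standard error 0.134, 95% interval -0.24 to 0.34), turning to -0.0011 without CTRL 3 and to -0.05 without RbpjΔEC 2. The genes most like Hmox1 over the 6 libraries were Col4a4, a basement membrane collagen chain (r = 0.995), Dcp2, an mRNA decapping enzyme (r = 0.977), and Ppm1d, a stress-response phosphatase (r = 0.973). Col4a4 had 90.8, 87.9 and 76.9 CPM in CTRL and 70.3, 110.6 and 91.3 CPM in RbpjΔEC, with RbpjΔEC 1 lowest and RbpjΔEC 2 highest as for Hmox1. Among 12 tested genes of heme and iron handling, 0 passed the adjusted p of 0.05, and the median was -0.0012, between -0.09 without RbpjΔEC 3 and 0.06 without RbpjΔEC 1. Fth1, the ferritin heavy chain, had a log2 fold change of -0.19, and Hmox2, the constitutive heme oxygenase, of -0.16, in each case with overlapping groups.

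**Figure D3:**
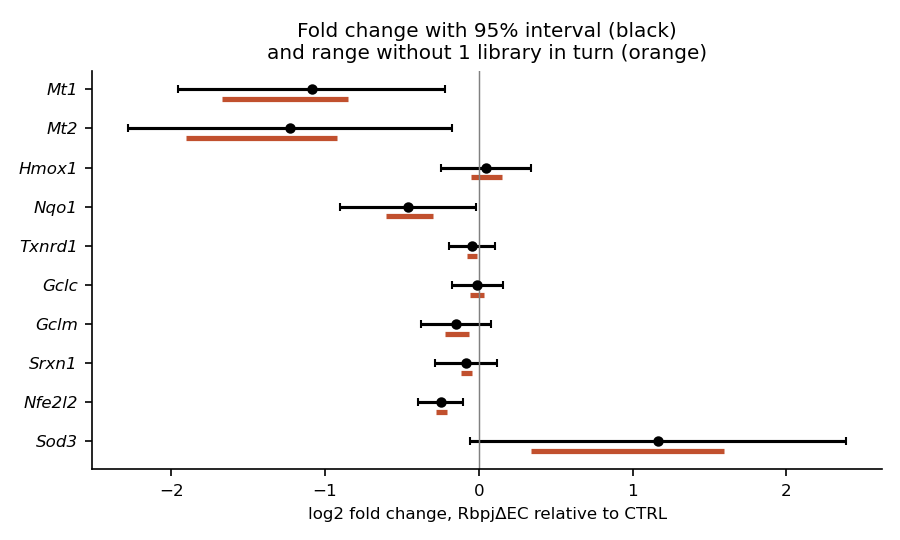
Log2 fold change of each of the 10 genes, RbpjΔEC relative to CTRL (x axis), with the 95% interval in black and the range of the values obtained without 1 library in turn in orange. Hmox1, Txnrd1, Gclc, Gclm and Srxn1 lie close to 0 with intervals that include it, while those of Mt1, Mt2 and Sod3 are wide.

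Sod3 (chr5:52363791-52371418, plus strand), the secreted superoxide dismutase of the extracellular matrix, was the least abundant of the 10 genes. It had 0.948, 0.782 and 1.78 CPM in CTRL and 1.41, 1.55 and 4.92 CPM in RbpjΔEC, from raw counts of 38, 37 and 75 and of 63, 65 and 197. RbpjΔEC 3 stood above the other 5 libraries, and RbpjΔEC 1 and 2 lay between CTRL 1 and CTRL 3. The log2 fold change was 1.16 (standard error 0.538, 95% interval -0.06 to 2.39, edgeR adjusted p = 0.307). Without RbpjΔEC 3 it was 0.34 (edgeR adjusted p = 0.733), and without any other single library it ran from 0.93 to 1.59.

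Proximal tubule markers followed the same libraries as Sod3. The 10 markers summed to 53.3, 93.6 and 164 CPM in CTRL and 108, 123 and 460 CPM in RbpjΔEC, with CTRL 3 the highest of its group and RbpjΔEC 3 above all others. All 10 had a log2 fold change above 0 (median 1.16), 1 of them at an unadjusted p under 0.05, where 8.88% of all tested genes were higher. At an adjusted p of 0.05 in edgeR's quasi-likelihood test there were 0, and none of the 10 was at 0 CPM in any library. Lrp2, the megalin gene of the proximal tubule brush border, had 13.7, 23.3 and 40.4 CPM in CTRL and 29.2, 29.0 and 129 CPM in RbpjΔEC. Their part in the value of Sod3 was not tested. Of genes with a mean of at least 5 CPM, those most like Sod3 over the 6 libraries were Scfd1, a vesicle trafficking gene (r = 0.985), Jak2, a cytokine receptor kinase, and 4931406C07Rik (r = 0.981 each). In these 3 genes, too, RbpjΔEC 3 was the highest library.

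Other NRF2 target genes had a median below 0, and none passed the adjusted threshold. Of 24 genes, all tested, 0 passed the adjusted p of 0.05 in edgeR's quasi-likelihood test, an unadjusted p under 0.05 was reached by 8 lower and 1 higher gene, where 8.62% of all tested genes were lower and 8.88% higher, and 17 lay below 0 (median -0.12). Gstm1, a glutathione transferase, had 60.9, 59.0 and 62.9 CPM in CTRL and 43.0, 47.2 and 51.5 CPM in RbpjΔEC, with no overlap (log2 fold change -0.37, standard error 0.0819, edgeR adjusted p = 0.0567). Ephx1, the microsomal epoxide hydrolase, was at -0.32 on the log2 scale and did not overlap either (edgeR adjusted p = 0.101). Osgin1, an oxidative stress-induced growth inhibitor, went the other way, at 9.20, 7.86 and 11.6 CPM in CTRL and 14.0, 13.6 and 14.4 CPM in RbpjΔEC (log2 fold change 0.55, standard error 0.144, edgeR adjusted p = 0.0851). The count of genes past the threshold was 3 without CTRL 2, where 401 of all genes were higher and 299 lower. It was 2 without RbpjΔEC 3, where 188 were higher and 333 lower, and 4 with DESeq2's Wald test, where 944 of all tested genes were called. The list median ran from -0.08 without CTRL 3 to -0.20 without CTRL 2.

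Of 15 superoxide dismutases, catalase and peroxidases, 0 passed the adjusted p of 0.05, and 2 were lower at an unadjusted p under 0.05, where 8.62% of all tested genes were lower. Of the 15, 12 lay below 0 (median -0.14, and -0.05 without RbpjΔEC 1, -0.08 without CTRL 3). Sod2, the mitochondrial superoxide dismutase, had 42.3, 40.9 and 41.0 CPM in CTRL and 33.8, 33.8 and 35.9 CPM in RbpjΔEC, with a clear gap between the groups (log2 fold change -0.26, standard error 0.0759, edgeR adjusted p = 0.108). Prdx2, a cytosolic peroxiredoxin, was at -0.21, and Sod1, the cytosolic dismutase, at -0.14 on the log2 scale. Of 14 thioredoxin and glutaredoxin genes, 0 passed, and 11 lay below 0 (median -0.11). Txnip, the inhibitor of thioredoxin, had 1720, 1916 and 2041 CPM in CTRL and 1303, 1648 and 1374 CPM in RbpjΔEC, with no overlap (log2 fold change -0.39, edgeR adjusted p = 0.0820). Sesn2, a stress-induced sestrin, was at 0.45 with no overlap, and Sesn3 at -0.19.

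Of 11 genes for sources of superoxide, 9 were tested and 0 passed the adjusted p of 0.05 (median -0.11). Without 1 library in turn the median lay between -0.16 without CTRL 3 and -0.28 without RbpjΔEC 3. Cybb, the catalytic subunit of the phagocyte NADPH oxidase, had 4.91, 1.33 and 1.14 CPM in CTRL and 0.758, 0.238 and 0.499 CPM in RbpjΔEC (log2 fold change -2.29, standard error 0.663, edgeR adjusted p = 0.136). CTRL 1 was the highest library, and the groups did not overlap. Ncf4, another subunit of that oxidase, was at -1.97 with overlapping groups, from raw counts of 36, 15 and 8 in CTRL and of 11, 0 and 4 in RbpjΔEC, the lowest near or below the floor. Beside these, 6 of the 7 tested macrophage markers, of 11 listed, also had a log2 fold change below 0 (median -1.25). Mrc1 was lower and Cd68 higher at an adjusted p of 0.05 in edgeR's quasi-likelihood test, where 0.559% of all tested genes were lower and 0.575% higher. Together the 7 markers summed to 27.3 to 34.7 CPM in CTRL and 33.6 to 39.9 CPM in RbpjΔEC, of which Cd68 made up 9.97 CPM on average in CTRL and 24.0 CPM in RbpjΔEC. Csf1r, the receptor of a macrophage growth factor, was at -1.57 on the log2 scale, and Ptprc, the gene of CD45, at 1.16 to 3.92 CPM in CTRL and 0.535 to 1.597 CPM in RbpjΔEC. Their part in the Cybb value was not tested. Nox4, an NADPH oxidase of endothelial and tubule cells, had 2.72, 1.20 and 2.68 CPM in CTRL and 2.57, 3.27 and 7.09 CPM in RbpjΔEC (log2 fold change 0.97, edgeR adjusted p = 0.302), with RbpjΔEC 3 highest as in Sod3.

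Immediate-early genes, which respond to stress and to tissue dissociation among other stimuli, were the only related list with genes past the threshold. Of 18 tested, 7 rose in RbpjΔEC and 0 fell at an adjusted p of 0.05 in edgeR's quasi-likelihood test, where 0.575% of all tested genes were higher, and the median log2 fold change was 0.48. These were Egr1, Btg2, Egr3, Atf3, Fos, Junb and Ier2. The list was chosen with earlier results of these data known, so its count beside that share is a description and not a test. Egr3, a zinc finger factor, had 10.5, 17.1 and 11.0 CPM in CTRL and 25.7, 26.4 and 25.1 CPM in RbpjΔEC, and rose by 1.00 on the log2 scale (standard error 0.170, edgeR adjusted p = 0.0326). Atf3, a stress-induced factor of the ATF/CREB family, had 126, 166 and 124 CPM in CTRL and 209, 199 and 201 CPM in RbpjΔEC, and rose by 0.55 (standard error 0.104, edgeR adjusted p = 0.0387). In both genes all RbpjΔEC libraries lay above all CTRL libraries. The count of 7 moved with the calls over all genes. It was 0 without CTRL 3 (7 of all genes higher and 17 lower), and 1 without CTRL 1 (17 and 37), without RbpjΔEC 1 (8 and 13) or without RbpjΔEC 2 (18 and 30). It was 10 without CTRL 2 (401 and 299) and 12 without RbpjΔEC 3 (188 and 333). The list median ran from 0.41 to 0.56 over these 6 fits.

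**Figure D4:**
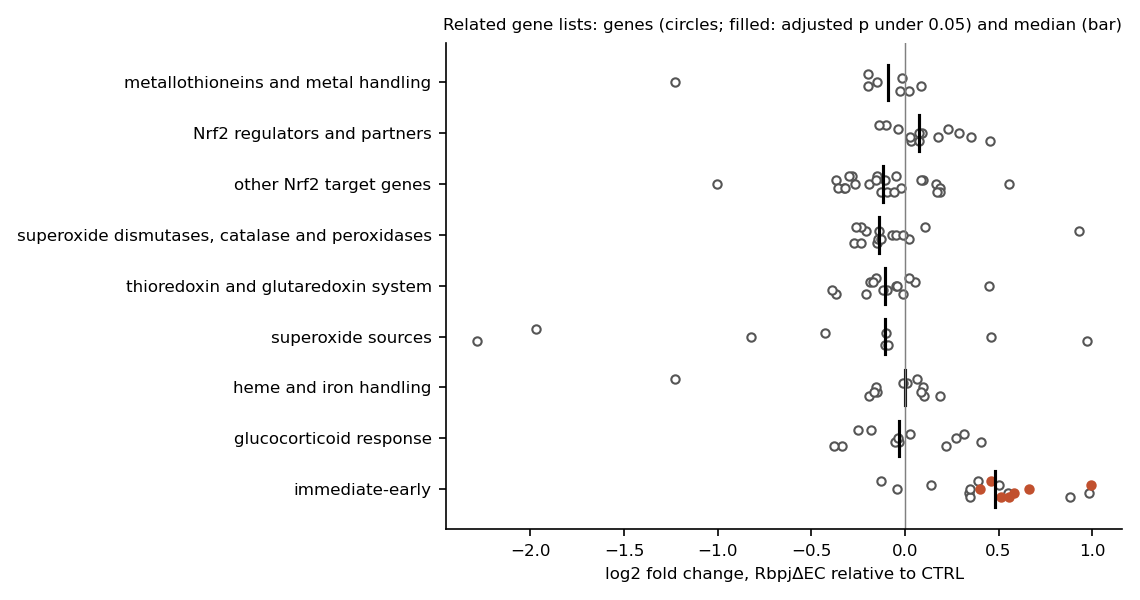
Log2 fold change, RbpjΔEC relative to CTRL (x axis), of each tested gene (circles) in 9 lists of related genes, with the list median as a black bar; filled circles passed an adjusted p of 0.05. Filled circles occur in the immediate-early list alone (7 of 18), whose median of 0.48 lies apart from the medians of the other 8 lists, between -0.14 and 0.08. The lists were chosen with earlier results of these data known.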

How the data were processed

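CD31+ CD45- kidney endothelial cells of 3 CTRL and 3 RbpjΔEC mice were analysed. The mice are separate animals, so replicates are biological. The authors deposited unnormalized whole-number read counts for each gene, and the submitters' processing notes name Trim Galore 0.6.4, STAR 2.6.1d, featureCounts of Subread 1.6.4 and GRCm38.p6. All libraries were sequenced in a common run per the study's methods, and no batch by run exists.

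The counts were scaled with TMM factors and tested in edgeR 4.0.16 under R 4.3.3 (filterByExpr, estimateDisp, glmQLFit with robust estimation, glmQLFTest), with Benjamini-Hochberg adjustment over all 18438 genes kept and a threshold of 0.05. Each standard error is the log2 fold change divided by the root of its F statistic. The 95% intervals of fold changes come from this fit and include the spread between mice. The fit was tested on simulated counts. DESeq2 1.42.0 was run with outlier and independent filtering off, as in the study's methods, on the 18438 genes kept by filterByExpr, and, as an alternative chosen after seeing the data, on all genes with a count. Log2 CPM for likeness used a prior count of 2. Coordinates and exon lengths were taken from the GENCODE annotation of GRCm38 used here, an earlier release than the authors counted with, so positions can differ between releases. Promoter windows came from a RefSeq table (GRCm38.p6).

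The members and lists were chosen with earlier results of these data known. Named by rule were all 10 genes, in each list the genes past the threshold or otherwise up to 3 with the smallest p, and for Mt1, Hmox1 and Sod3 the 3 genes of highest correlation. Keap1, Mtf1 and the marker genes given as examples were added after their values were seen. The floor of 3 counts covers counting error only. As alternatives, the scaling, the filter, the test, a block for the replicate number and the leaving out of each library were tried.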

Additional observations from a re-analysis of the deposited data

How the results depend on the processing

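The results were recomputed under 13 alternatives, the ratios with each library left out only. Of the values, 351 kept their direction and side of the threshold or moved by less than the limit set for them, 62 moved further, 8 newly passed the threshold and 7 fold changes or ratios of members turned in sign. The medians of the glucocorticoid and heme lists, close to 0, also turned in sign under several settings. With no filter on low counts (38324 genes), edgeR's quasi-likelihood test called Mt1 (log2 fold change -1.08, adjusted p = 2.7e-05), Mt2 (-1.22, 0.0236) and Sod3 (1.17, 0.0124), so 2 members lower and 1 higher, with 717 of all genes higher and 719 lower. DESeq2's Wald test on the 18438 filtered genes called Mt1 (-1.09, adjusted p = 0.0192) and Nfe2l2 (-0.25, 0.0338), 2 members lower, with 434 of all genes higher and 510 lower. DESeq2 on all genes with a count, an alternative chosen after seeing the data, called 1 member lower, Mt1 (-1.09, adjusted p = 0.0332), and not Nfe2l2 (-0.25, 0.0849), with 262 of all genes higher and 322 lower. Its all-gene median was -0.10, against 0.01. Gclc turned to 0.0317 with library size alone.

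Whether the replicate numbers pair the mice is not known. Deviations of same-numbered libraries correlated at 0.0231, 0.00916 and 0.00544, which gave no sign of pairing but cannot exclude it. With the number as a replicate block, 166 genes were higher and 178 lower, against 106 and 103 without it. No member passed in that fit (Mt1 -1.20, adjusted p = 0.213, and Nfe2l2 -0.25, adjusted p = 0.131, both from edgeR). In the block fit the count of calls was 1 in the thioredoxin list, 1 among superoxide sources and 12 among immediate-early genes.

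List medians moved for metal handling genes to -0.0463 with library size alone, -0.17 with no filter, -0.0213 with at least 1 CPM in 3 libraries and -0.18 with DESeq2 on all genes. With library size alone they moved to 0.12 for NRF2 regulators and -0.0646 for the thioredoxin list. Calls with no filter were 1 in NRF2 regulators, 5 in other NRF2 targets, 2 in the thioredoxin list, 2 in superoxide sources, 2 in the glucocorticoid list and 12 in the immediate-early list. Calls with DESeq2's Wald test were 4 in other NRF2 targets, 1 in the thioredoxin list, 1 in superoxide sources and 12 in the immediate-early list. On all genes with a count they were 1, 1, 1 and 12. The cause of these moves was not tested, beyond the number of genes tested where the filter changed.

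With each library left out in turn, genes called higher ran from 7 (without CTRL 3) to 401 (without CTRL 2) and genes called lower from 13 (without RbpjΔEC 1) to 333 (without RbpjΔEC 3). The counts were 17 and 37 without CTRL 1, 401 and 299 without CTRL 2, 7 and 17 without CTRL 3, 8 and 13 without RbpjΔEC 1, 18 and 30 without RbpjΔEC 2, and 188 and 333 without RbpjΔEC 3. Members called lower ran from 0 to 2. The log2 fold change ran from -1.67 to -0.85 for Mt1, from -1.90 to -0.92 for Mt2, from -0.0475 to 0.15 for Hmox1 and from -0.0548 to 0.0352 for Gclc. The Mt1 to Mt2 log2 ratio ran from -0.0123 to 0.31. List medians ran from -0.10 to -0.0309 for metal handling, 0.0423 to 0.11 for NRF2 regulators and -0.15 to -0.0740 for the thioredoxin list, and calls from 0 to 1 in NRF2 regulators, 0 to 3 in other NRF2 targets, 0 to 1 in the glucocorticoid list and 0 to 12 in the immediate-early list. Medians also ran from -0.20 to -0.08 for other NRF2 targets, -0.21 to -0.05 for dismutases and peroxidases, -0.28 to -0.16 for superoxide sources, and from below to above 0 for the glucocorticoid list (-0.23 to 0.13) and the heme list (-0.09 to 0.06). Counts per library were 20 to 111 for Mt2 and 37 to 197 for Sod3, the fewest of the members.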
